A study of Mus musculus with 8 samples.

Results

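Rab GTPases are the family of small GTPases that mark the membranes of the secretory and endocytic routes. The family was taken as every gene whose symbol is Rab, a number and at most 1 further letter, a rule that used no measured value. It holds 57 of the 15867 genes in the deposited expression table, and all 57 had enough signal to be tested. Messenger RNA was sequenced from F4/80+ macrophages isolated from the adipose tissue of obese mice after 20 weeks of high-fat diet. All mice carried floxed Mirc11 and Mirc22 alleles on both chromosomes, written Mirc11 fl/fl Mirc22 fl/fl in the labels, and these loci encode miR-23, miR-27 and miR-24. The 4 control samples were Lyz2+/+. The 4 knockout samples were Lyz2Cre/Cre, in which Cre recombinase made from the Lyz2 locus deletes the floxed clusters in myeloid cells. The Cre insertion also removes both working copies of Lyz2, and a group with Cre alone was not part of the design, so the effects of the clusters, of Cre and of Lyz2 loss cannot be told apart.

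A Rab protein cycles between a GTP-bound form that sits on a membrane and recruits effectors, and a GDP-bound form that is taken back into the cytosol. Exchange factors load GTP, GTPase-activating proteins end the signal, and prenylation provides the lipid anchor. In macrophages, Rab5 proteins act on early endosomes and young phagosomes, Rab7 replaces them as the compartment matures towards the lysosome, and Rab11 and Rab4 proteins return receptors to the surface.

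The microRNAs of the floxed clusters pair with target messages through bases 2 to 8 of their mature form, the seed, shown here in capitals because the Rab messages are compared below by matches to it. The sequences are those of RefSeq, with the GRCm38.p6 build.
mmu-miR-23a-3p: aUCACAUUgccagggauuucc
mmu-miR-27a-3p: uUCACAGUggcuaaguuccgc
mmu-miR-27b-3p: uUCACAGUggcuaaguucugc
mmu-miR-24-3p: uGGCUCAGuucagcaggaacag
The list leaves out miR-23b-3p, which had no sequence in the reference used. The 2 miR-27 forms share 1 seed. The miR-24 sequence is encoded at both clusters, on chromosome 8 by Mir24-2 and on chromosome 13 by Mir24-1.

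An 8-base match was defined as the reverse complement of the seed followed by an A, which gives AATGTGAA for miR-23, ACTGTGAA for miR-27 and CTGAGCCA for miR-24, read on the message strand only. Such a match was found in the longest annotated 3′ UTR of 4 of the 57 Rab genes (7.02%), against 19.7% of the 14912 genes that have a row and an annotated 3′ UTR of at least 30 bases. Rab UTRs were not shorter, with a median of 1550 bases against 1179. The 6 matches came to 5.10 per 100 kb of Rab UTR, against 14.5 per 100 kb over all genes. The matches that carry this contrast are printed in 30-base windows on mm10, with the matching letters in capitals.
Rab17, miR-24, chr1:90958570-90958599, minus strand: acttggatgccCTGAGCCAagtgtgcctgc
Rab1b, miR-24, chr19:5099733-5099762, minus strand: ccctgccctgcCTGAGCCAggcccatgtgc
Rab30, miR-27, chr7:92837906-92837935, plus strand: tatatctttctACTGTGAAtgtccctaaat
Rab30, miR-24, chr7:92841161-92841190, plus strand: aatgacagaggCTGAGCCAtgttctgatta
Rab39b, miR-23, chrX:75572296-75572325, minus strand: tttagacaataAATGTGAAaaaatcaggtg
Rab39b, miR-23, chrX:75572113-75572142, minus strand: cactgtaatgaAATGTGAAaaattctttat
With the shorter 7-base match, which drops the closing A, 20 Rab genes had at least 1 (35.1%), against 41.0% of all genes. Rab43 had the most, with 5 matches to miR-24, and 1 of them is shown with the single miR-27 match of Rab27a, a gene taken up below.
Rab43, miR-24, chr6:87792342-87792371, minus strand: ccaggactagcCTGAGCCtccagcatagac
Rab27a, miR-27, chr9:73096043-73096072, plus strand: cggattgactcACTGTGAgtttgggggtgg
A match describes the letters of the message and does not show binding.

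The deposited values are normalized counts, whole reads divided by 1 factor per library, and recovered totals ran from 31789395 to 46621080 reads. Lyz2, which the Cre insertion disrupts, ran from 156727 to 204853 in the controls and from 174 to 273 in the knockouts, so every library matched its genotype label. The labels call the samples biological replicates without stating that each is 1 animal, and p-values here measure the spread between these samples. Of 6 general macrophage markers 4 were lower in the knockout by limma (Lyz2, Itgam, Cd68 and Csf1r), and the summed level of the markers other than Lyz2 was 159895 to 193205 in the controls and 134936 to 143161 in the knockouts. Summed endothelial and mural markers ran from 71090 to 121533 in the controls and from 113659 to 156074 in the knockouts. The summed level of 5 dendritic cell markers was 925 to 1539 in the controls and 1876 to 2038 in the knockouts, without overlap. Zbtb46 made up most of that sum, at 662 to 1164 in the controls and 1166 to 1633 in the knockouts. Flt3, Xcr1, Clec9a and Cd209a each overlapped between the groups, and the Clec9a mean was lower in the knockouts (101 and 86.0). In the mast cell and eosinophil list, summing to 647 to 1634 and 1477 to 2192, Siglecf was higher in the knockout (limma adjusted p = 0.0297). The sums of the other 7 lists overlapped between the groups. Among them, fibroblast and preadipocyte markers summed to 94057 to 161145 in the controls and 128127 to 199164 in the knockouts. In both groups these ranges met those of the macrophage markers other than Lyz2. The Rab levels below are those of the whole samples. No measured marker of any list was at 0. The part of these shifts in the Rab values below was not tested, and in bulk samples fewer macrophages and less RNA per macrophage cannot be told apart.

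In the knockout samples the abundant endosomal genes Rab7, Rab31 and Rab7b stood at 0.859, 0.847 and 0.758 of their control levels. Rab5c, Rab24 and Rab11a, also abundant endosomal genes, stood at 0.983, 1.00 and 1.03 of theirs. Rab27a, a Rab of secretory lysosomes, stood at 1.30 times its control level. No Rab gene passed the main test, limma on log2(normalized count + 1) at a Benjamini-Hochberg adjusted p of 0.05 over all 15862 genes tested, where 573 genes passed (3.61%), 196 higher and 377 lower (2.38%) in the knockout. With each library scaled to the same total, that split became 245 higher and 244 lower. At an unadjusted limma p under 0.05 there were 10 Rab genes of 57, 4 higher and 6 lower (17.5%), against 21.2% of all genes. The count model edgeR, run on the recovered reads, also called none of the 57, against 3.51% of all genes. DESeq2 on the same reads called 3 of the 50 Rab genes it adjusted, against 10.9% of 14305 genes: Rab7 and Rab7b lower, and Rab27a higher. The authors' deposited table, also from DESeq2, called the same 3, with adjusted p = 0.000494 for Rab7, 0.0450 for Rab7b and 0.0464 for Rab27a. The all-gene limma count rested on the full set of libraries: it was 376, 502, 163 and 324 without control replicates 1 to 4 in turn, and 210, 296, 241 and 237 without knockout replicates 1 to 4.

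Values of the 4 knockouts lay wholly outside those of the 4 controls for 6 Rab genes of 57 (10.5%), a share below the 13.7% of all genes. Of these, 5 were lower: Rab7, Rab7b, Rab31, Rab14 and Rab5b. A count of 5 in 57 is close to the 8.21% of all genes that lay wholly lower. The 5 belong to the early, recycling and late endosome roles, which hold 6, 9 and 8 of the 57 genes. Rab23 was the 1 higher gene. The median Rab difference, knockout minus control, was -0.076 on the log2 scale against 0.0021 for all genes, and 37 of the 57 lay below 0 (64.9%, against 49.5%). Differences ran from -0.61 for Rab17 to 0.78 for Rab37. With equal library totals the Rab median was -0.018 and that of all genes 0.060.

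**Figure D1:**
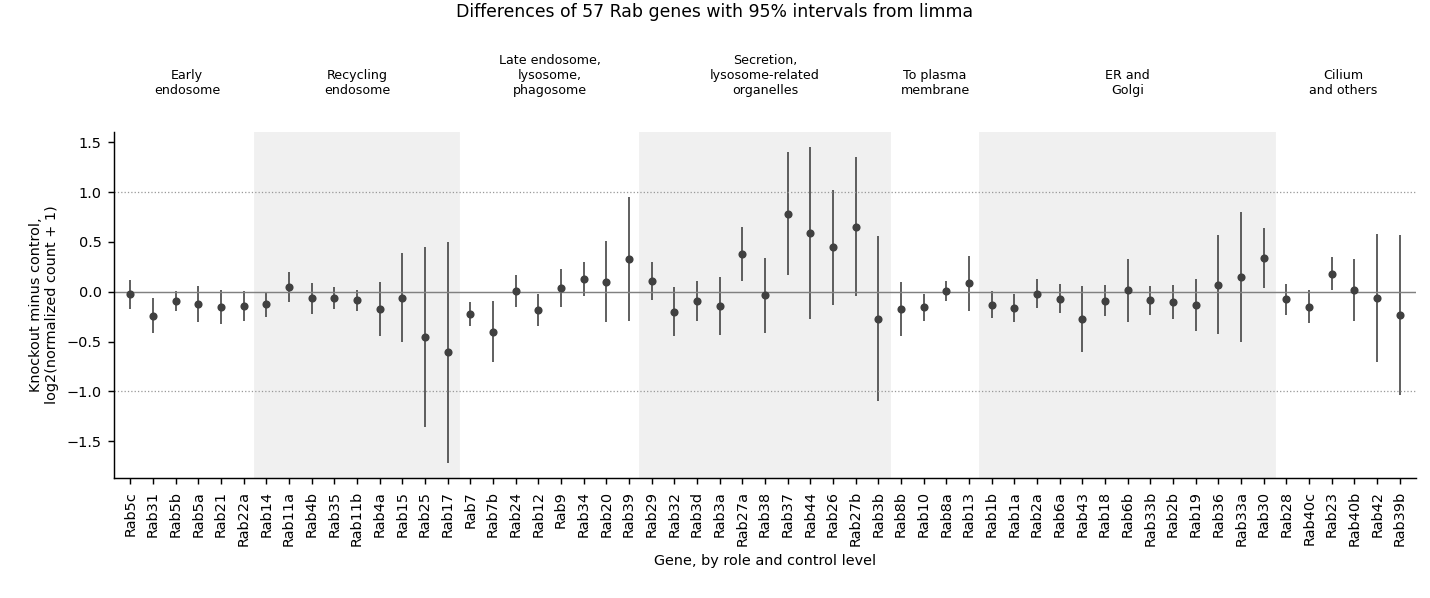
Each point is the knockout minus control difference of 1 Rab gene on the log2(normalized count + 1) scale, with its 95% limma interval, ordered by role and, within a role, by control level per kilobase. Dotted lines mark a 2-fold change in either direction. Intervals are mostly narrow for the abundant genes and wide for the rare ones, and the points run from -0.61 (Rab17) to 0.78 (Rab37). Rab8b (-0.44 to 0.10) and Rab7b (-0.71 to -0.089) are abundant genes with wider intervals than some rarer genes of their roles.

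The 95% interval of the difference lay within a 1.5-fold change in both directions for 42 of the 57 Rab genes and within 2-fold for 49. The other 8, whose interval reached past a 2-fold change, were Rab25, Rab37, Rab17, Rab44, Rab26, Rab27b, Rab39b and Rab3b. All 8 had low levels.

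Levels of different genes were compared as normalized count per kilobase of the longest annotated transcript. Rab7 led in the controls with 7902 per kilobase, followed by Rab5c with 7550, and their ranges overlapped. Rab1b (3954), Rab1a (2726) and Rab7b (2402) came next, and Rab1b stood clear of both its neighbours. Rab14, Rab31, Rab8b, Rab2a and Rab24 completed the first 10, and from Rab1a down to Rab2a every pair of neighbours overlapped. Over the whole order 44 of the 56 neighbouring pairs overlapped in their control ranges. At the foot stood Rab3b, a synaptic vesicle and secretory granule Rab, with 3.25 per kilobase.

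The first 5 genes made up 41.8% of the family's summed control level per kilobase and 41.4% of the knockout level. For the first 10 the shares were 60.9% and 59.7%, and the same 10 genes led in both groups. By role, the 8 late endosome, lysosome and phagosome genes held 24.8% to 25.9% of the family's level in the controls and 23.4% to 24.9% in the knockouts, ranges that just met. The 11 genes of regulated secretion and lysosome-related organelles held the small share of 4.23% to 4.48% in the controls and 4.68% to 4.87% in the knockouts, and those ranges did not meet. Rab genes as a whole held 0.413% to 0.447% of all normalized counts in the controls and 0.388% to 0.412% in the knockouts.

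**Figure D2:**
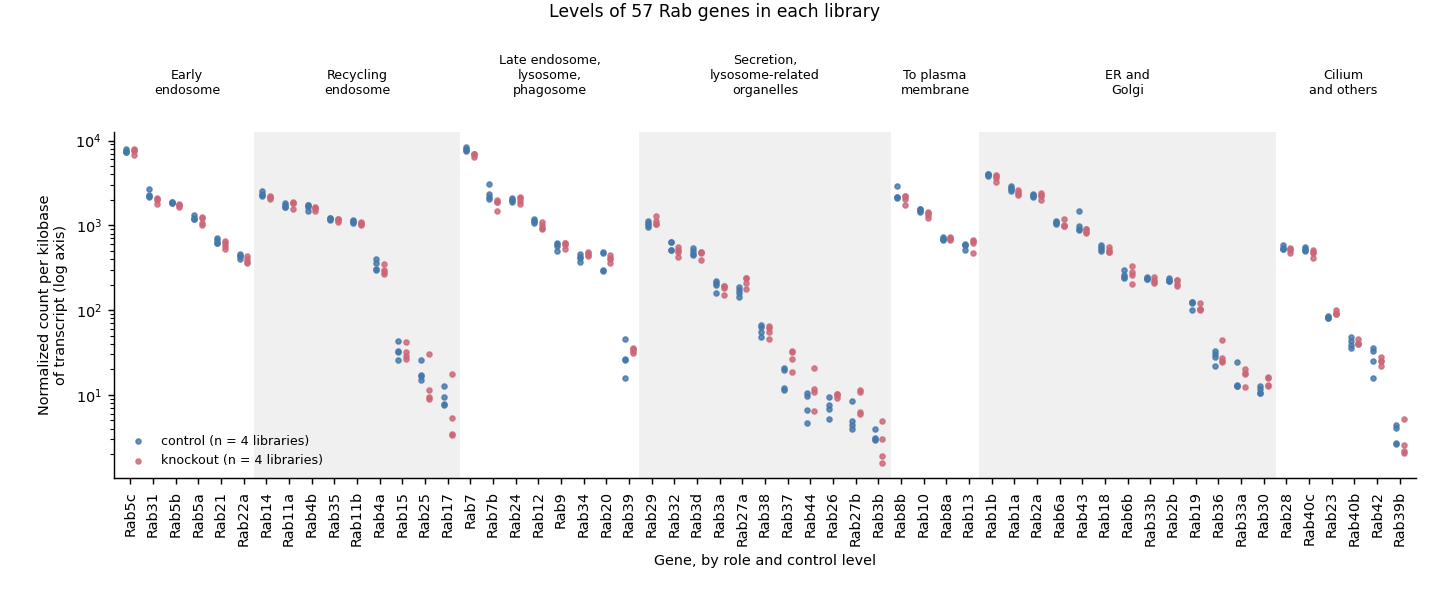
Normalized count per kilobase of transcript (log axis) of the 57 Rab genes in each of 4 control (blue) and 4 knockout (red) libraries, 1 point per library, grouped by role. Levels span from 7902 (Rab7) to 3.25 (Rab3b) in the control means, and the 2 groups overlap for 51 of the 57 genes.

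Early endosome genes came first along the route inwards, and all 6 had differences below 0, with a median of -0.13. With equal library totals or quantile normalization 5 of the 6 did, Rab5c being the exception. None passed the test. Rab5c, the most abundant of the 3 Rab5 paralogs that drive early endosome fusion, was 14989, 14588, 14377 and 15448 in control replicates 1 to 4 and 15087, 13124, 15617 and 14674 in the knockouts. The groups overlapped throughout, with a difference of -0.024 (95% interval -0.17 to 0.12, limma adjusted p = 0.867), and the sign turned under other scalings (0.034 with equal totals and 0.051 with quantile normalization). Rab5b was 5876 to 5970 in the controls and 5297 to 5728 in the knockouts, which did not overlap, and differed by -0.092 (-0.19 to 0.0044, limma adjusted p = 0.257). Its 4 controls were unusually alike, with an SD of 43.0 around a mean of 5919.

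Rab31, which acts between the trans-Golgi network and endosomes, had the strongest difference of the early endosome group. Its values were 9280, 7577, 7649 and 7882 in control replicates 1 to 4 and 6213, 6868, 7250 and 7046 in the knockouts. Control replicate 1 was high and knockout replicate 1 low, and the groups did not overlap. The difference was -0.24 (SE 0.078, 95% interval -0.42 to -0.062, limma adjusted p = 0.129).

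Of the 9 recycling endosome genes, 8 had differences below 0, with a median of -0.085, and none passed the test. Rab17 and Rab25, taken up below, had the 2 largest negative limma differences of the family, at -0.61 and -0.45, at very low levels. With edgeR and with DESeq2 alike they were -0.34 and -0.32. Rab7b fell further in those models, at -0.40 with edgeR and -0.41 with DESeq2. Rab14, which links endosomes, the Golgi and early phagosomes, was 7876, 6811, 7028 and 7154 in the controls and 6287, 6699, 6639 and 6783 in the knockouts. The closest pair, control replicate 2 and knockout replicate 4, differed by little, yet the groups did not overlap. The difference was -0.13 (-0.26 to 0.0012, limma adjusted p = 0.240). The 1 gene of this group above 0 was Rab11a, a Rab of the slow recycling route, at 0.047, chosen after its values were seen.

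Late endosome, lysosome and phagosome genes held differences on both sides of 0. An unadjusted limma p under 0.05 was reached by 3 of 8 (37.5%, against 21.2% of all genes), all lower. The median of the group was 0.022 and 5 of 8 lay above 0. Rab7, on chr6:87999106-88045270 of mm10, is the Rab that drives late endosomes and phagosomes to fuse with lysosomes. It was 17968, 16714, 16436 and 17125 in control replicates 1 to 4 and 13888, 14795, 15006 and 14933 in the knockouts. All 4 knockouts lay below all 4 controls. The difference was -0.22 (SE 0.053, 95% interval -0.34 to -0.099), or 0.859 of the control level, with an limma adjusted p of 0.0603 that missed the threshold and a DESeq2 adjusted p of 0.000492 that passed it. Leaving out 1 library at a time gave limma differences of -0.24 to -0.19.

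Rab7 and Rab5c mark the end and the start of endosome maturation, and both stand at the head of the family. Per kilobase, the ratio of Rab7 to Rab5c was 1.09, 1.04, 1.04 and 1.01 in control replicates 1 to 4. In the knockouts it was 0.839, 1.03, 0.875 and 0.927. Rab7 was thus the higher of the pair in all 4 controls and in 1 of the 4 knockouts, and knockout replicate 2 fell inside the control range. This ratio was chosen after the values were seen and was not tested; it does not depend on the scaling of libraries, but its absolute size depends on the transcript lengths used.

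Rab7b, on chr1:131688695-131715439, is a distinct late endosomal Rab that carries cargo towards the Golgi and is known in macrophages for lowering Toll-like receptor 4 at the surface. Its values were 13721, 9311, 9700 and 10476 in control replicates 1 to 4 and 6583, 8495, 8588 and 8923 in the knockouts. Control replicate 1 was the high library and knockout replicate 1 the low one, as for Rab31, and no knockout reached the lowest control. The difference was -0.40 (SE 0.14, 95% interval -0.71 to -0.089), or 0.758 of the control level. The limma adjusted p was 0.145 and the DESeq2 adjusted p 0.0450. Without control replicate 1 the difference was -0.28, and without knockout replicate 1 it was -0.30.

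Rab12, which sends the transferrin receptor to lysosomes, was the third of these lower genes, at -0.18 (-0.35 to -0.019, limma adjusted p = 0.195), and its groups overlapped. The other 5 genes of the role, Rab9, Rab20, Rab24, Rab34 and Rab39, ran from 0.0065 to 0.33. Rab12 and these 5 were chosen after their values were seen.

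Genes of regulated secretion and lysosome-related organelles had a median difference of 0.11, with 6 of 11 above 0 and 5 below (45.5% below, against 49.5% of all genes), and none passed the limma test. Rab27a, on chr9:73044854-73097629, docks secretory lysosomes and exosome-bearing endosomes at the plasma membrane. It was 451, 597, 506 and 545 in control replicates 1 to 4 and 758, 656, 562 and 758 in the knockouts. Knockout replicate 3 lay below control replicate 2, so the groups overlapped. The difference was 0.38 (SE 0.12, 95% interval 0.10 to 0.65), or 1.30 times the control level. The limma adjusted p was 0.124 and the DESeq2 adjusted p 0.0464. Knockout replicates 1 and 4 were its highest pair of libraries and control replicate 1 its lowest. Pecam1, Cdh5, Kdr, Vwf, Cldn5 and Rgs5 of the endothelial and mural list had the same highest pair and lowest library. Tek was lowest in control replicate 4 and Pdgfrb highest in knockout replicate 3. This order was seen after the values were known, and the part of endothelial RNA in Rab27a was not tested.

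Rab37, a Rab of secretory granules, had the largest positive difference of the family and was chosen after its values were seen. It was 29.5, 50.8, 53.4 and 30.9 in control replicates 1 to 4 and 84.4, 83.5, 68.0 and 47.5 in the knockouts. Knockout replicate 4 fell among the controls. The difference was 0.78 (0.17 to 1.40, limma adjusted p = 0.148). Rab29, the most abundant gene of this role per kilobase, a partner of the kinase LRRK2 at the Golgi and stressed lysosomes, ran from 1172 to 1396 in the controls and from 1271 to 1565 in the knockouts, with a difference of 0.11 (-0.081 to 0.30, limma adjusted p = 0.504).

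**Figure D3:**
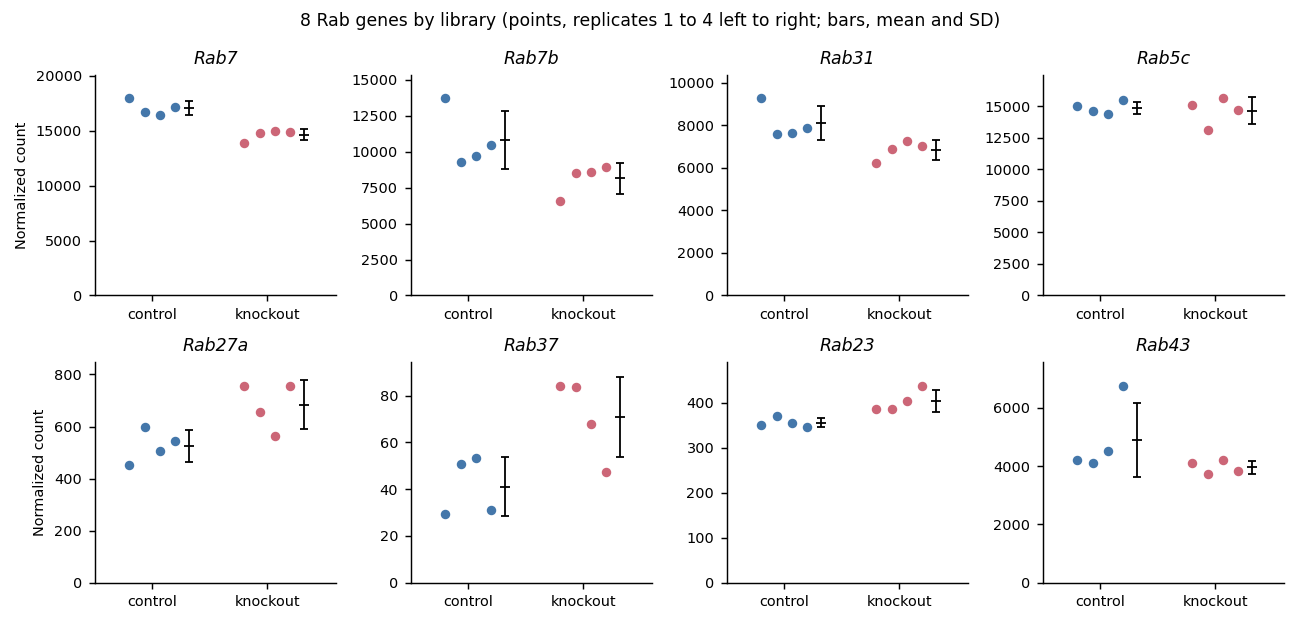
Normalized counts of 8 Rab genes by library (points, replicates 1 to 4 from left to right in each group, blue control and red knockout), with the mean and SD (n = 4) beside them; every axis starts at 0. Rab7, Rab7b and Rab31 show all knockouts below all controls, Rab23 shows all knockouts above, Rab5c, Rab27a and Rab37 overlap, and Rab43 has 1 control library, replicate 4, at 6771.

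Of the 4 genes of transport to the plasma membrane, 2 lay below 0 and 2 above. Rab8b, the most abundant of them per kilobase, which works in exocytosis, was 13792, 9808, 10163 and 10265 in control replicates 1 to 4 and 8326, 9583, 10461 and 10531 in the knockouts. Control replicate 1 stood far above the other 3 and the groups overlapped, with a difference of -0.17 (-0.44 to 0.10, limma adjusted p = 0.458). Without that library it was -0.058. Rab10, known for bringing Toll-like receptor 4 to the macrophage surface, ran from 4984 to 5538 in the controls and from 4326 to 5047 in the knockouts and differed by -0.16 (-0.30 to -0.018, limma adjusted p = 0.191).

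Endoplasmic reticulum and Golgi genes numbered 13, with 9 below 0, a median of -0.087 and none past the test. Rab1b and Rab1a, which move vesicles from the endoplasmic reticulum to the Golgi, differed by -0.13 (-0.27 to 0.011, limma adjusted p = 0.272) and -0.17 (-0.30 to -0.027, limma adjusted p = 0.173). Rab1b ran from 7396 to 7723 in the controls and from 6186 to 7428 in the knockouts, and knockout replicate 3 lay within the control range. Rab1a ran from 7263 to 8324 and from 6473 to 7359, again overlapping through knockout replicate 3.

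Rab43, a Rab of the Golgi, was set apart by a single library and was chosen after its values were seen. It was 4209, 4107, 4508 and 6771 in control replicates 1 to 4 and ran from 3739 to 4206 in the knockouts. The difference of -0.27 (-0.61 to 0.058, limma adjusted p = 0.323) became -0.11 without control replicate 4. Rab43 shares exon sequence on the same strand with the predicted gene Gm45140, which was 761, 515, 774 and 863 in the controls and 563 to 747 in the knockouts, also highest in control replicate 4. Reads common to both may have been divided between them, so the value of Rab43 is uncertain.

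Among the 6 genes of the cilium, of ubiquitin ligases and of other roles, Rab23, an inhibitor of Hedgehog signalling, was the only Rab gene with all knockouts above all controls. It was 351, 370, 355 and 346 in control replicates 1 to 4 and 386, 386, 403 and 438 in the knockouts. The difference was 0.18 (SE 0.073, 95% interval 0.014 to 0.34, limma adjusted p = 0.203). Rab28, a ciliary Rab and the most abundant of the 6 per kilobase, ran from 882 to 985 in the controls and from 790 to 925 in the knockouts, with a difference of -0.076 (-0.23 to 0.079, limma adjusted p = 0.569).

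Some libraries stood at the edge of the range for many Rab genes. Control replicate 1 was the highest of the 8 libraries for 17 of the 57 genes, Rab7, Rab7b, Rab31, Rab8b and Rab14 among them. Knockout replicate 2 was the lowest for 17 and knockout replicate 1 for 13. The remaining libraries were lowest for 3 to 6 genes each.

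Rab17 and Rab25, Rabs of polarised epithelial cells, and Rab39b, a Rab best known from neurons, were at very low levels and were chosen after their values were seen. Rab17 was 13.9, 14.2, 17.1 and 23.0 in control replicates 1 to 4 and 9.67, 31.9, 6.38 and 6.07 in the knockouts. Rab25 was 16.4, 18.3, 18.2 and 28.0 in the controls and 12.3, 33.0, 9.57 and 10.1 in the knockouts. For all 3 genes knockout replicate 2 was the highest library, control replicate 4 the second and knockout replicates 3 and 4 the lowest pair.

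The epithelial markers Epcam, Krt8, Krt19 and Cdh1 had that same order at the top and the same pair at the foot. The other 2 genes of the mesothelial and epithelial marker list did not: Msln was highest in knockout replicate 1 and lowest in control replicate 1, and Upk3b was highest in knockout replicate 2 and lowest in control replicate 1. The summed level of all 6 ran from 657 to 1368 in the controls and from 305 to 2247 in the knockouts. Epcam was 105, 90.5, 124 and 187 in the controls and 88.8, 359, 9.57 and 8.09 in the knockouts. The part of epithelial RNA in the values of these Rab genes was not tested. The limma differences between genotypes were -0.61 for Rab17, -0.45 for Rab25 and -0.23 for Rab39b. Without knockout replicate 2 these differences were -1.11, -0.84 and -0.51. None of these passed the limma test, with adjusted p = 0.0985 for Rab17, 0.137 for Rab25 and 0.375 for Rab39b without that library.

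**Figure D4:**
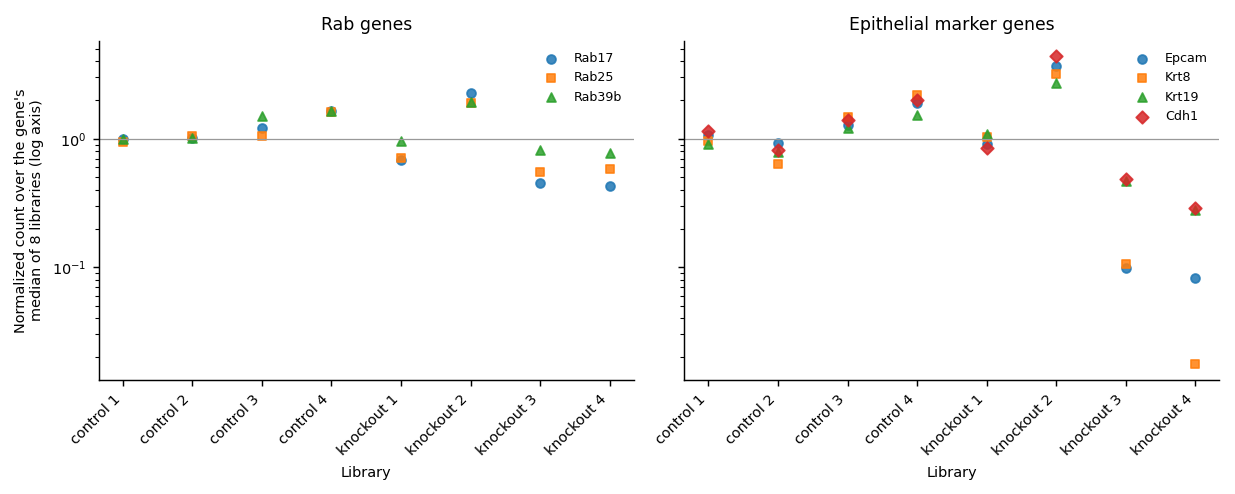
Normalized count of each gene divided by its median over the 8 libraries (log axis), by library, for Rab17, Rab25 and Rab39b (left) and for the epithelial markers Epcam, Krt8, Krt19 and Cdh1 (right). In both panels knockout replicate 2 is the highest library and knockout replicates 3 and 4 are the lowest pair.

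The 4 Rab genes with an 8-base seed match to the deleted microRNAs had no common direction. Rab30, a Golgi Rab with matches to both miR-27 and miR-24 and chosen here for them, was 112, 98.6, 100 and 121 in control replicates 1 to 4 and 150, 120, 123 and 154 in the knockouts. Knockout replicate 2 lay just under control replicate 4. The difference was 0.34 (0.033 to 0.64, limma adjusted p = 0.197), and it stood beside -0.13 for Rab1b, -0.23 for Rab39b and -0.61 for Rab17. Rab17 and Rab39b were at very low levels, as given above. With edgeR and with DESeq2 alike they were -0.34 and -0.19. The median of the 4 genes was -0.18, that of the 16 with only a 7-base match -0.080, and that of the 37 without a match -0.068. Over all genes with an annotated 3′ UTR, the median was 0.023 with an 8-base match and -0.0065 without one. By family, the 9 Rab genes with a 7-base match to miR-27 had a median of 0.072. It was -0.11 for the 12 with a miR-24 match and -0.17 for the 4 with a miR-23 match. Over all genes these medians were 0.022, 0.0062 and 0.017. Some genes count in more than 1 family. These are descriptions of few genes, with no test.

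**Figure D5:**
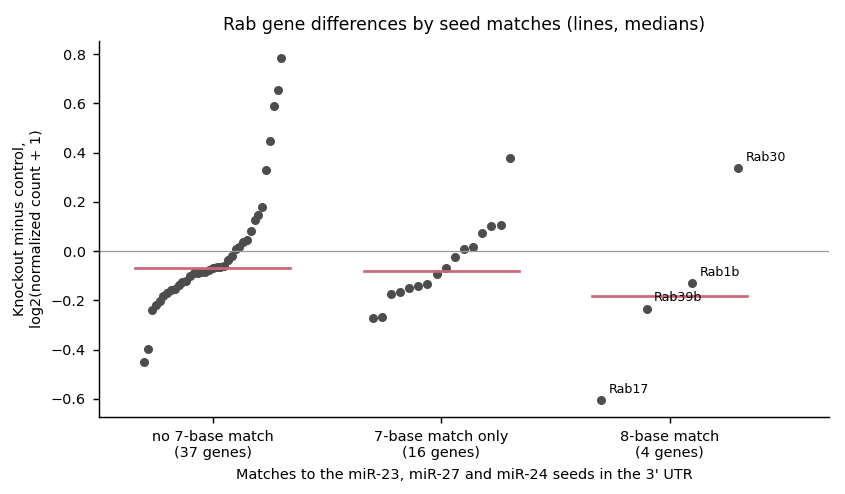
Knockout minus control difference on the log2(normalized count + 1) scale of the 57 Rab genes, split by matches to the seeds of the 3 microRNA families in the longest 3′ UTR (37 genes with none, 16 with a 7-base match only, 4 with an 8-base match); red lines are medians, at -0.068, -0.080 and -0.18. Of the 4 genes with an 8-base match, Rab30 lies above 0 and Rab1b, Rab39b and Rab17 below. Rab39b and Rab17 were at very low levels.

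The proteins that load, switch off, anchor and read Rab GTPases were taken from 4 lists of 134 genes, of which 132 were tested. By limma, 4 of the 132 passed (3.03%), all lower in the knockout, a share near the 3.61% of all genes. The lists held 0 of 8 prenylation and recycling genes, 1 of 34 exchange factors, 0 of 34 GTPase-activating proteins and 3 of 56 effectors. At an unadjusted limma p under 0.05 these were 1, 11, 7 and 9. Together they made 28 of the 132 (21.2%), against 21.2% of all genes. With edgeR 4 of the 132 passed, against 3.51% of all genes, and with DESeq2 11 of the 131 it adjusted, against 10.9%.

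Among the effectors, 2 that passed bind Rab11 proteins on recycling endosomes. Rab11fip1 was 417, 398, 416 and 447 in control replicates 1 to 4 and 282, 299, 290 and 329 in the knockouts. All knockouts lay well below all controls. The difference was -0.48 (SE 0.080, 95% interval -0.66 to -0.30, limma adjusted p = 0.0168).

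Rab11fip5 was 14858, 15404, 16980 and 16281 in the controls and 12724, 11625, 13160 and 11685 in the knockouts, again without overlap. It differed by -0.37 (SE 0.066, -0.52 to -0.22, limma adjusted p = 0.0229). The Rab11 genes themselves differed by 0.047 (Rab11a, limma adjusted p = 0.746) and -0.085 (Rab11b, limma adjusted p = 0.325).

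Vps18, a core subunit of the HOPS and CORVET complexes that tether late and early endosomes for Rab7 and Rab5, was the third effector that passed. It was 4031, 3470, 3738 and 3660 in the controls and 3007, 3014, 3195 and 3020 in the knockouts. The groups did not overlap, and the difference was -0.28 (SE 0.055, -0.41 to -0.16, limma adjusted p = 0.0298). Dennd2a, an exchange factor for Rab9, was 2765, 2689, 2944 and 2711 in the controls and 2310, 2325, 2362 and 2115 in the knockouts, likewise apart. It differed by -0.29 (SE 0.054, -0.41 to -0.16, limma adjusted p = 0.0263).

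These 4 calls stood close to the threshold. Without 1 library the number of regulators that passed was 3, 4, 0 and 1 for control replicates 1 to 4 and 0, 1, 1 and 1 for knockout replicates 1 to 4. All 4 kept a difference below 0 in every such fit, from -0.53 to -0.45 for Rab11fip1, -0.40 to -0.34 for Rab11fip5, -0.32 to -0.24 for Vps18 and -0.30 to -0.25 for Dennd2a. With each library scaled to the same total, Rab11fip1 and Rab11fip5 passed, and Vps18 (limma adjusted p = 0.0614) and Dennd2a (limma adjusted p = 0.0891) did not.

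No gene of prenylation passed, and all 8 lay below 0, with a median of -0.093; with equal library totals 5 of the 8 did, and with quantile normalization 7. Rabac1, a receptor for prenylated Rab proteins at the Golgi, ran from 5805 to 6731 in the controls and from 4975 to 5613 in the knockouts, which did not overlap. It differed by -0.22 (-0.36 to -0.078, limma adjusted p = 0.0914). Chml, an escort protein that presents new Rab proteins for prenylation, differed by -0.19 (-0.38 to 0.0018, limma adjusted p = 0.240), and its groups overlapped.

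Of the GTPase-activating proteins, Usp6nl, which acts on Rab5, ran from 1682 to 1863 in the controls and from 1436 to 1639 in the knockouts and differed by -0.22 (-0.36 to -0.085, limma adjusted p = 0.0824). Tbc1d2b, which acts on Rab22, ran from 5927 to 7337 and from 5273 to 5732 and differed by -0.22 (-0.39 to -0.054, limma adjusted p = 0.135). Neither passed the test, although in both the knockouts lay below all controls. The median of the 34 genes was -0.029.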

How the data were processed

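Poly(A) libraries were made from the F4/80+ cells of 4 control and 4 knockout samples, per the labels' protocols. Salmon, DESeq2, cutadapt, FastQC and the mm10 build are listed without versions, per the submitters' processing notes. The authors deposited normalized counts, a signal that is never negative. Every value is a whole number of reads (within 0.01) divided by 1 factor per library. The lowest value is 1 read in each library, and whether 1 was added was not stated. A DESeq2 table of the authors holds, per the file headers, log2 fold changes written as control over knockout, so with signs turned against those used here, a test statistic (a score) and p-values.

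Genes with a mean of at least 10 were tested with limma 3.58.1 (R 4.3.3, eBayes with trend) on log2(value + 1), two-sided, without covariates, with Benjamini-Hochberg adjustment over all 15862 genes. A pseudocount of 1 understates changes of low genes. edgeR 4.0.16 and DESeq2 1.42.0 were run on the recovered reads as alternatives, beside other pseudocounts, filters, scalings and weights, a replicate block and each library left out. The fitting code was tested on simulated data. Positions, lengths and 3′ UTRs came from GENCODE M21 on mm10; all 57 Rab symbols matched. Exons of 20 Rab genes overlap another gene's exons, 6 of them a gene with a row (Rab24, Rab26, Rab2b, Rab3a, Rab43 and Rab6a). Whether reads were assigned by strand was not stated, and those values are uncertain.

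The Rab genes, the role groups, the regulator and the marker lists were chosen with earlier results of these data known. The named genes are, for each role, the member with the smallest p, the most abundant per kilobase and those whose groups do not overlap, and for each regulator list those that passed or else the 2 with the smallest p. The labels do not state that replicate numbers pair the samples, and the main test did not pair them.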

Additional observations from a re-analysis of the deposited data

Results flagged for a closer look

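In a group of 4 libraries, a library was singled out where its gap to the nearest other exceeded the Dixon limit as a share of the group's range. Chance does this in about 1 in 20 groups, and 17 of the 130 groups examined (57 Rab genes and 8 regulators in each genotype) met it. Among abundant Rab genes these were Rab8b in control replicate 1 (13792, the others 9808 to 10265), Rab8a in the same library (3273, the others 3091 to 3116) and Rab43 in control replicate 4 (6771, the others 4107 to 4508). In the knockouts they were Rab11a in replicate 1 (3671, the others 4245 to 4353), Rab6a in replicate 4 (3765, the others 3165 to 3234), Rab3d in replicate 2 (1522, the others 1828 to 1884) and the regulator Vps18 in replicate 3 (3195, the others 3007 to 3020).

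Rab19, a Golgi Rab, was singled out in both groups, low in control replicate 3 (158, the others 193 to 198) and high in knockout replicate 3 (193, the others 159 to 164). Knockout replicate 2 was high for Rab36 (147, the others 80.9 to 89.3), Rab40b (84.6, the others 74.4 to 75.6), Rab25 (33.0, the others 9.57 to 12.3), Rab17 (31.9, the others 6.07 to 9.67) and Rab39b (17.6, the others 7.08 to 8.79). Rab25 was also high in control replicate 4 (28.0, the others 16.4 to 18.3). Control replicate 2 was high for Rab33a (28.5, the others 14.7 to 15.0) and Rab3b (13.2, the others 9.82 to 10.2), genes with counts near the lowest tested.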

How the results depend on the processing

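The count of Rab genes past the threshold stayed at 0 in all alternatives run with limma or edgeR and was 3 with DESeq2. The count over all genes (573) was 931 with array weights, 1557 with DESeq2, 7 with the replicate block and 163 to 502 with 1 library left out. The count of regulators (4) was 2 with equal library totals, 7 with array weights, 11 with DESeq2, 0 with the replicate block and 0 to 4 with 1 library left out. Same-numbered libraries had correlations of -0.20, -0.20, -0.036 and -0.29 in their deviations from the group means. With 4 libraries per group these values cannot settle whether the numbers pair the samples. The replicate block left no Rab gene past the threshold. The median Rab difference of -0.076 was -0.018 with equal totals and -0.096 to -0.065 with 1 library left out. Not every Rab gene named was followed through the alternatives, Rab24, Rab11a and Rab36 among those that were not. Of the Rab genes followed, Rab5c changed sign: 0.034 with equal totals, 0.051 with quantile normalization, 0.024 with array weights and -0.057 to 0.027 with 1 library left out, the positive value without knockout replicate 2. The cause of these changes was not tested. Rab7, Rab7b and Rab27a were past the threshold with DESeq2 alone. Their adjusted p over the 18 alternatives ran from 0.000492 to 0.311, from 0.0450 to 0.384 and from 0.0464 to 0.304. Rab17, Rab25 and Rab39b have no value under the filter at a mean of 50. Depth limits the 10 Rab genes with a control mean under 50, whose values carry large counting error.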
